A study of Drosophila melanogaster with 12 samples.

Results

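Stand-alone noncoding RNA gene starts are the annotated 5′ ends of noncoding RNA (ncRNA) genes that lie at least 1500 bp outside every protein-coding gene body. A peak found there is less easily taken for the peak of a neighbouring mRNA gene. They were chosen from the Ensembl annotation of the fly genome and not from the ChIP data. Of 3289 ncRNA genes on the 7 chromosomes used, 1038 met this rule, among 18277 gene starts of all kinds. The 1038 comprised 878 long noncoding RNA (lncRNA) genes, 5 antisense RNA genes, 43 microRNA precursors, 82 unnamed entries of 20 to 27 nt and 30 other genes, of which 27 were Su(Ste) repeats on the Y chromosome. All 82 unnamed entries lay inside a microRNA precursor and are read here as coordinates of mature microRNAs. Because a precursor and its mature entries lie within the same window, members were also grouped wherever their windows overlapped, which gave 861 groups, 746 of them with 1 member.

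The measurements were peaks from chromatin immunoprecipitation and sequencing (ChIP-seq) with the antibody 8WG16, which binds the hypophosphorylated tail of RNA polymerase II (Pol II). The cells were Kc167, a hemocyte-like Drosophila melanogaster line that is female and was derived from embryos, collected 3 days after transfection. One group received 100 pmol of an siRNA against AGO2 (siAGO2), another 2 μg of double-stranded RNA against LaminB (dsLaminB), and the control group no RNA (mock). Each group had 2 immunoprecipitated libraries, and their peak lists held 4089 and 5381 peaks for siAGO2, 2531 and 4124 peaks for dsLaminB, and 5965 and 5601 peaks for mock. The cells carried no other manipulation named in the labels, and nothing in the labels says whether replicates were separate transfections, so the spread between them may be technical. Peak lists hold no RNA levels, so the knockdowns themselves could not be checked here. Of the hemocyte genes looked up, Hml, Pxn, Pvr and Col4a1 had a peak at the gene start in 6 of 6 libraries, srp in 1 and vkg and NimC1 in 0, while elav of neurons and Mef2 of muscle also had one in 6 and Mhc and vas in 0. Read numbers are unknown from the lists.

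Pol II makes most lncRNAs and also the long primary transcripts from which microRNA precursors are cut, and these primary transcripts often begin many kilobases before the hairpin. At active fly promoters Pol II collects close to the start site, which is where 8WG16 ChIP signal is usually highest. AGO2 is the Argonaute protein of the small interfering RNA pathway, and LaminB is a protein of the nuclear lamina, the layer beneath the nuclear envelope.

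The sequences shown first belong to starts that the results turn on. Each stretch runs 5′ to 3′ on the gene strand, with 100 bases before the annotated start and 50 bases that open with the start base itself. Capitals mark TATAAA, the core of a TATA box, and TCAGT, the core of the Drosophila initiator, as searched on the gene strand. Coordinates and letters are those of RefSeq for the dm6 assembly. CR31044 (FBgn0051044, chr3R:29214462-29214611, plus strand), CR43334 (FBgn0286827, chr3L:628335-628484, plus strand), CR43459 (FBgn0263413, chr3R:10093661-10093810, plus strand) and marge (FBgn0263380, chr3L:14977582-14977731, minus strand) are shown because all 4 carried a peak in every library. Hsromega (FBgn0001234, plus strand) is shown at both of its annotated starts, chr3R:21296027-21296176 and chr3R:21296521-21296670, because its peaks lay nearer the second one. The start of bxd (FBgn0020556, chr3R:16773140-16773289, minus strand) is shown as one of the long intergenic transcripts with no peak.
CR31044: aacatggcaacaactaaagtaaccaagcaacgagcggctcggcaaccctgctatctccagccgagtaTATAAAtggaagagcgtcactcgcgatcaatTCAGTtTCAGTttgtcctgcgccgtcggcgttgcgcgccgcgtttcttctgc
CR43334: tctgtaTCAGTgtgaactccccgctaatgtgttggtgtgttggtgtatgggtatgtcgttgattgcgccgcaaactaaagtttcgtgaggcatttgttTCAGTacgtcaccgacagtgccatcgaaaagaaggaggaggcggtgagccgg
CR43459: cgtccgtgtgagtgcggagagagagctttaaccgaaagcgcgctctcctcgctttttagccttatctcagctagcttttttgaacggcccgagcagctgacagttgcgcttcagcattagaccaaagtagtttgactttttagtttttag
marge: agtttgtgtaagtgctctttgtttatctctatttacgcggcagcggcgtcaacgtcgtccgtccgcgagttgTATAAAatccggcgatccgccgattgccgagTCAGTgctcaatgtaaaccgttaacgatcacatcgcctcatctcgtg
Hsromega, gene 5′ end: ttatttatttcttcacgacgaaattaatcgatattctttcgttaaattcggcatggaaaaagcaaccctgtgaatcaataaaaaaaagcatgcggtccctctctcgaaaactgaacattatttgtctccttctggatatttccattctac
Hsromega, second start: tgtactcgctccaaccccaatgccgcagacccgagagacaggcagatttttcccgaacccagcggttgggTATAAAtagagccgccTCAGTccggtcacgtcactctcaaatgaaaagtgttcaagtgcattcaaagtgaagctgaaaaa
bxd: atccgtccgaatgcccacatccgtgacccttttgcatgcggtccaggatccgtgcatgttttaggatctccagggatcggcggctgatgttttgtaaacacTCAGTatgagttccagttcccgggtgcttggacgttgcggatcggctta

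With the start base counted as 1 and no position 0, TATAAA began at -33 in CR31044 and at -28 in marge. TCAGT began at -2 and 5 in CR31044, at -2 in CR43334 with another at -94, at 4 in marge and at 2 in bxd. Neither motif was in the 150 bases at CR43459 or at the gene 5′ end of Hsromega. At the second start of Hsromega, TATAAA began at -30 and TCAGT at -14. A match is only a run of letters, and bxd shows that a TCAGT at the start was found without a peak.

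Several of the starts with peaks belong to primary transcripts of microRNAs. The mature microRNAs are printed as DNA with the seed, bases 2 to 8, in capitals, because the seed largely decides which mRNAs a microRNA pairs with. CR31044 holds mir-279, known for its part in forming carbon dioxide sensing neurons, and mir-996. CR43334 holds mir-ban, the bantam microRNA that promotes growth and blocks cell death. CR43459 holds mir-277, which acts on branched-chain amino acid breakdown, and mir-34, studied in ageing neurons.
mir-279 3p arm, chr3R:29215651-29215672: tGACTAGAtccacactcattaa
mir-996 3p arm, chr3R:29217244-29217265: tGACTAGAtttcatgctcgtct
mir-ban 3p arm, chr3L:642259-642281: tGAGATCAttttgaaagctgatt
mir-277 3p arm, chr3R:10100080-10100102: tAAATGCActatctggtacgaca
mir-34 5p arm, chr3R:10100952-10100975: tGGCAGTGtggttagctggttgtg
mir-282 5p arm, chr3L:3251038-3251061: tAGCCTCTactaggctttgtctgt
The 3p arms of mir-279 and mir-996 share the seed GACTAGA, so the peak at CR31044 stands at the start of a transcript that holds a pair of same-seed microRNAs. The other 4 seeds differed from it and from each other.

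Few stand-alone ncRNA starts carried a Pol II peak within 500 bp of the 5′ end. The count was 29 and 37 of 1038 in siAGO2, 22 and 28 in dsLaminB, and 42 and 36 in mock. As shares these were 2.79% (Wilson 95% interval 1.95 to 3.98) and 3.56% (2.60 to 4.87) in siAGO2, 2.12% (1.40 to 3.19) and 2.70% (1.87 to 3.87) in dsLaminB, and 4.05% (3.01 to 5.42) and 3.47% (2.52 to 4.76) in mock. The intervals cover counting error only and treat members that share a window as if they were independent. Over all 18277 gene starts the share with a peak was 27.4% and 35.5% in siAGO2, 15.1% and 26.0% in dsLaminB, and 39.9% and 37.7% in mock, so the ncRNA starts lay far below the background in every library.

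Protein-coding starts carried peaks about an order of magnitude more often. Of 13968 protein-coding starts, 33.1% and 42.6% had a peak in siAGO2, 17.8% and 31.2% in dsLaminB, and 47.7% and 45.3% in mock. Members minus protein-coding averaged -33.2 percentage points ± 10.5 (SD over 6 libraries) and was negative in 6 of 6 libraries. The share at protein-coding starts was 11.8 and 11.9 times that at members in siAGO2, 8.41 and 11.6 times in dsLaminB, and 11.8 and 13.1 times in mock. When protein-coding starts were held to the same distance rule, which left 2910, 20.0% and 24.2% carried a peak in siAGO2, 13.7% and 19.9% in dsLaminB, and 26.9% and 25.3% in mock. The difference then averaged -18.6 percentage points.

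**Figure D1:**
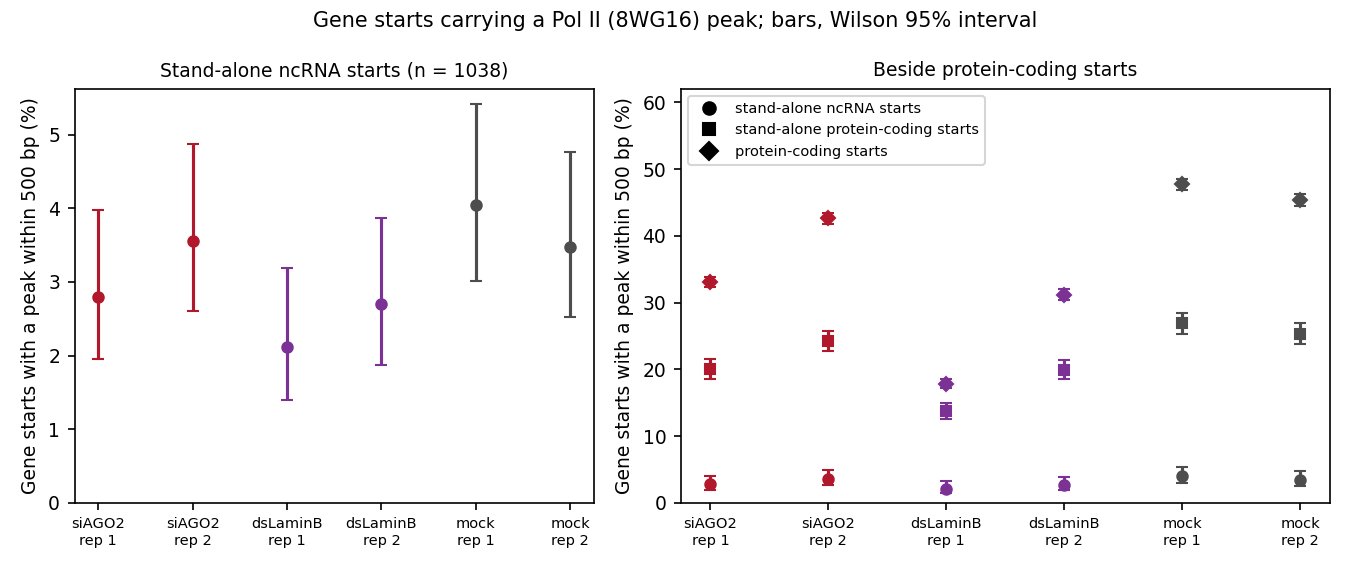
Share of gene starts with a Pol II peak within 500 bp (y axis, %) in each library (x axis), for stand-alone ncRNA starts alone (left) and beside stand-alone and all protein-coding starts (right). Points are single libraries and bars are Wilson 95% intervals. The ncRNA starts sit between 2.12% and 4.05%, below the stand-alone protein-coding starts (13.7% to 26.9%) in every library.

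The ncRNA starts were still richer in peaks than windows away from both protein-coding genes and the members. Windows of the same length were tiled over the territory at least 1500 bp from protein-coding genes, leaving out any that overlapped the window of a member. The tiling kept the Y chromosome, which a female line lacks, and repeated sequence, where multimapping reads had been removed. The windows numbered 33355. A peak was held by 0.252% and 0.402% of them in siAGO2, 0.276% and 0.468% in dsLaminB, and 0.645% and 0.423% in mock. Every one of these shares lay below the share of ncRNA starts in the same library. Counted by groups of overlapping windows, 19 and 27 of 861 groups met a peak in siAGO2, 15 and 20 in dsLaminB, and 30 and 26 in mock. Over the 6 libraries together, 5.01% of ncRNA starts and 1.05% of tiled windows met a peak at least once.

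Counted by member, peak coverage was highest near the 5′ end and fell off more on the downstream side. Along the ncRNA genes the share under a peak was greatest at the 5′ end or 100 bp downstream of it, where it reached 1.93% and 2.60% in siAGO2, 1.45% and 1.73% in dsLaminB, and 2.70% and 2.50% in mock. At 1000 bp downstream it was 0.193% and 0.482% in siAGO2, 0.289% and 0.289% in dsLaminB, and 0.771% and 0.578% in mock. At 1000 bp upstream it was higher, at 1.06% and 1.35% in siAGO2, 0.771% and 0.963% in dsLaminB, and 1.45% and 1.06% in mock. In mock replicate 1 the share was still 2.22% at 600 bp upstream. Part of the upstream coverage is repeated counting. In mock replicate 2, 11 starts lay under a peak at 1000 bp upstream and 6 at 1000 bp downstream. The mir-14 and mir-282 peaks reached that upstream position, and each was counted again for the mature entries inside its hairpin. The shares were not computed with each shared peak counted once. The peak covered the annotated 5′ end itself at 20 of 29 and 22 of 37 starts in siAGO2, 11 of 22 and 18 of 28 in dsLaminB, and 26 of 42 and 25 of 36 in mock. A peak on the gene body with none at the start was found at 5 and 5 members in siAGO2, 6 and 7 in dsLaminB, and 5 and 4 in mock. At stand-alone protein-coding starts the maximum lay 100 bp downstream in all 6 libraries, with 12.2% to 24.8% of genes under a peak.

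**Figure D2:**
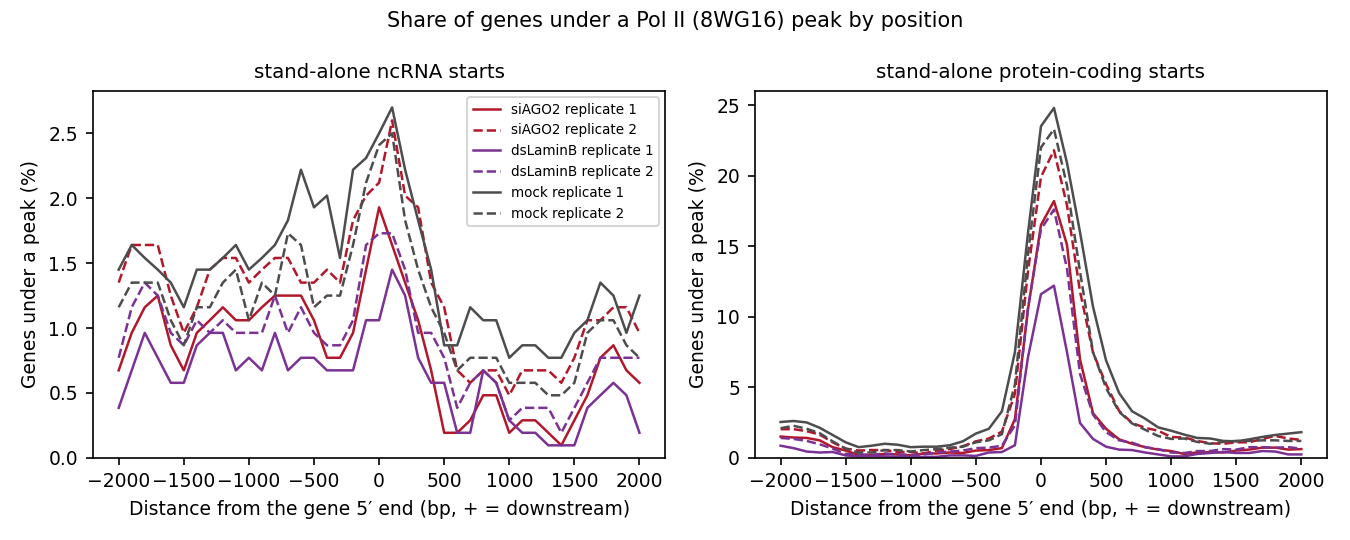
Share of genes under a Pol II peak (y axis, %) against distance from the gene 5′ end (x axis, bp, positive values downstream) for stand-alone ncRNA starts (left) and stand-alone protein-coding starts (right), 1 line for each library. The ncRNA curves top out between 1.45% and 2.70% at or 100 bp after the 5′ end, over a floor that is uneven, and the protein-coding curves between 12.2% and 24.8%.

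Peaks were more frequent at ncRNA starts inside or close to protein-coding genes than at stand-alone starts, with no clear step at the 1500-bp limit. Among all ncRNA starts, 21.3% of the 1492 inside a protein-coding body and 24.7% of the 352 less than 500 bp outside one met a peak in at least 1 library. Just outside the 1500-bp rule, from 1000 bp on, 16 of 157 starts did (10.2%), and just inside it, up to 2000 bp, 9 of 121 did (7.44%). By library, the shares just outside and just inside were 3.18% and 4.96% in siAGO2 replicate 1, and 3.82% and 3.31% in replicate 2. They were 1.27% and 2.48% in dsLaminB replicate 1, and 2.55% and 3.31% in replicate 2. In mock they were 10.2% and 7.44% in replicate 1, and 5.73% and 6.61% in replicate 2. In at least 1 library, the share fell further with distance. At 10000 bp or more, 9 of 290 starts met a peak in at least 1 library (3.10%). No peak at a member reached a protein-coding gene or its start window in any library.

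**Figure D3:**
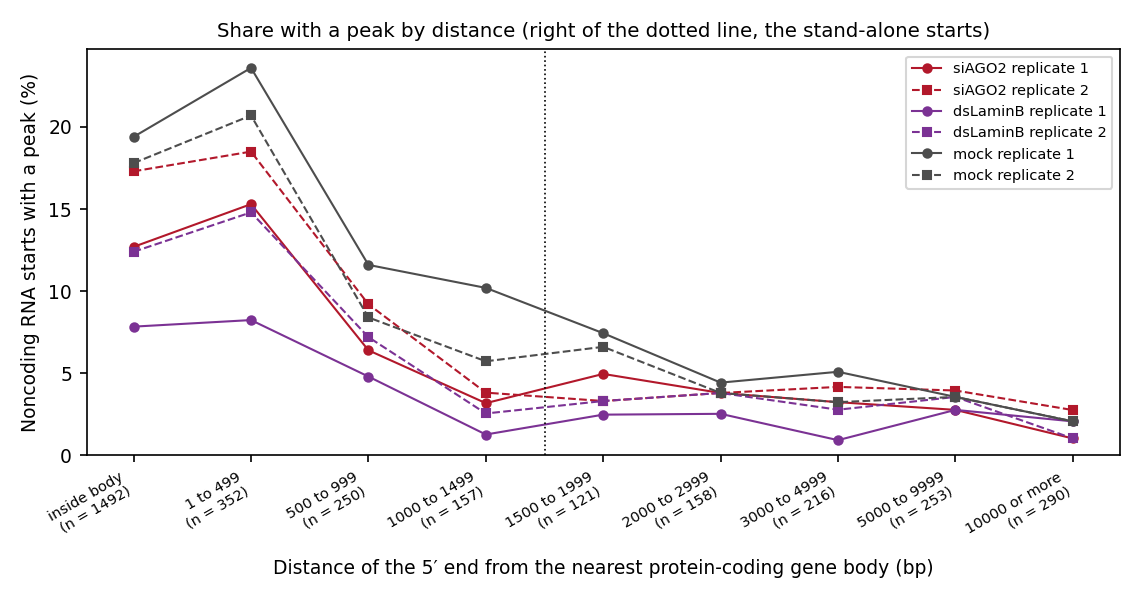
Share of ncRNA starts with a peak (y axis, %) by distance of the 5′ end from the nearest protein-coding gene body (x axis, bp), 1 line for each library. Stand-alone starts lie to the right of the dotted line, where the shares run between 0.926% and 7.44%, against 7.84% to 19.4% for starts inside a protein-coding body.

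In all, 52 of the 1038 starts (5.01%) carried a peak in at least 1 library, in 38 groups of overlapping windows, and 17 (1.64%, 12 groups) carried one in all 6. Over all gene starts 14.6% had a peak in all 6 libraries. Of the starts with any peak, 32.7% at ncRNA genes and 35.6% at protein-coding genes had it in all 6, while 19.2% at ncRNA genes and 6.12% at protein-coding genes had it in only 1. By type, 38 of 878 lncRNAs, 4 of 43 microRNA precursors, 8 of 82 mature entries and 2 of 5 antisense RNAs met a peak. None of the other 30 genes did, and 27 of these are Su(Ste) repeats on the Y chromosome, which a female line lacks. By chromosome, starts with any peak numbered 16 of 206 on 3R, 12 of 152 on 2R, 12 of 244 on 3L, 6 of 122 on X, 5 of 279 on 2L, 1 of 7 on 4 and 0 of 28 on Y. Members that share a peak are each counted here, as at mir-14 and mir-8 on 2R. Shares over all gene starts are not given by chromosome, so these counts do not rank the chromosomes.

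**Figure D4:**
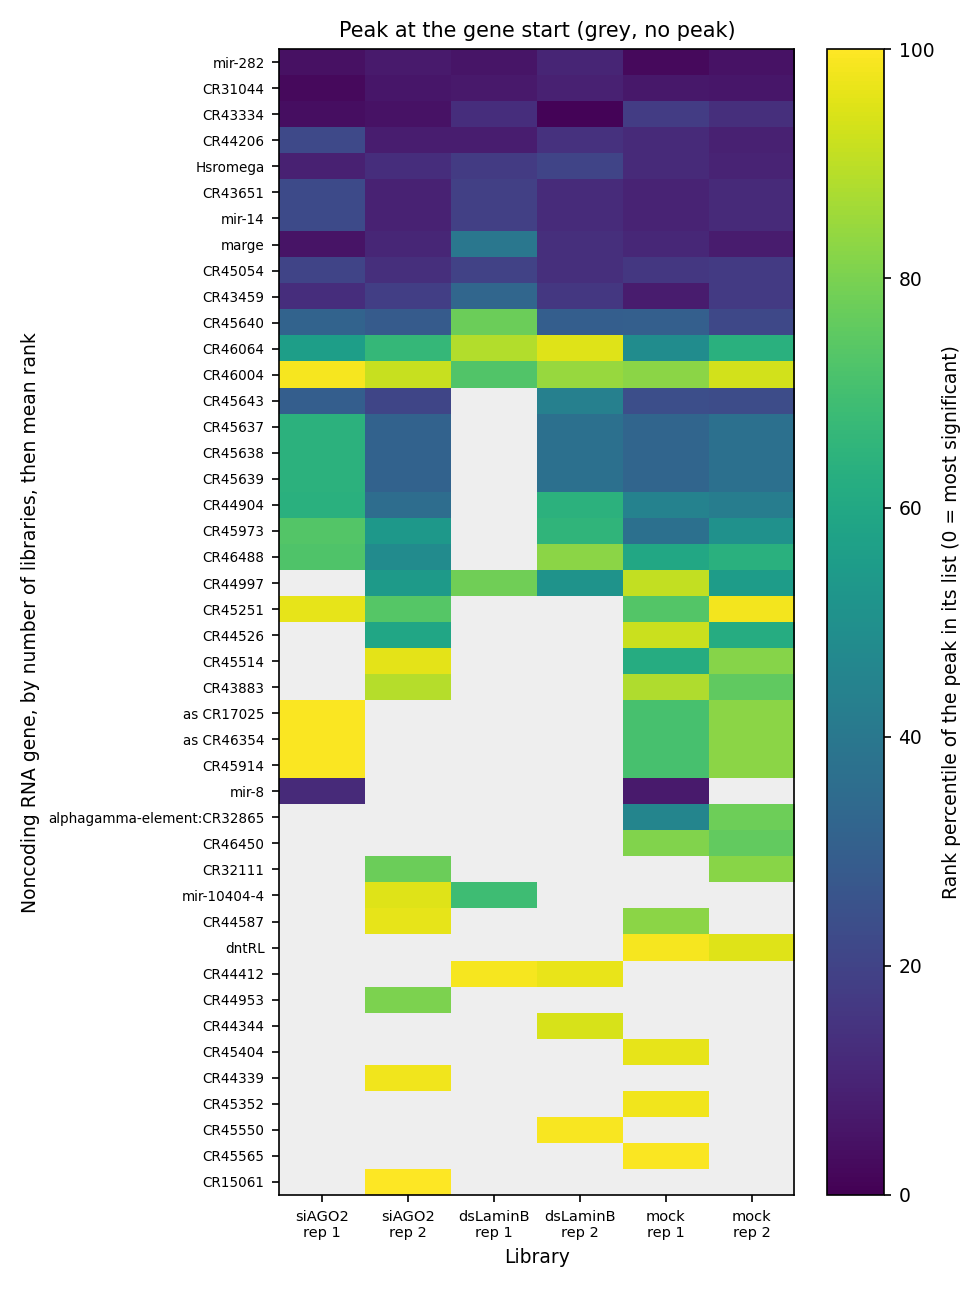
Rank percentile of the peak at each of 44 ncRNA gene starts with any peak (rows, mature microRNA entries left out) in the 6 libraries (columns), where 0 (dark) is the most significant end of the list and grey is no peak. The 13 rows at the top have a peak in all 6 libraries, and most starts with peaks in few libraries have pale, low-ranked ones.

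Peaks were ranked within each list by the −log10 q of the authors, and a rank percentile of 0 stands for the most significant end. The peak with the best mean rank at any member lay beside mir-282. It stood at percentiles 4.38 and 7.14 in siAGO2, 5.73 and 10.5 in dsLaminB, and 2.50 and 4.77 in mock. Its peaks were 1823 and 1860 bp wide in siAGO2, 432 and 1716 bp in dsLaminB, and 1948 and 1852 bp in mock. These peaks lay mainly before the hairpin. Mir-282 sits inside another lncRNA, CR43626, 1682 bp from that gene's 5′ end, which is 296 bp from a protein-coding gene and so outside the rule. The peak beside mir-282 was also the best peak at that 5′ end in 5 of 6 libraries, the exception being dsLaminB replicate 1.

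CR31044, the transcript of mir-279 and mir-996, had the best mean rank of the lncRNAs. Its peak stood at percentiles 2.47 and 5.91 in siAGO2, 6.72 and 9.24 in dsLaminB, and 6.55 and 6.07 in mock. The siAGO2 percentiles were smaller, and the dsLaminB percentiles larger, than both mock percentiles. Percentiles depend on the length of each list, and the plain ranks were 101 and 318 in siAGO2, 170 and 381 in dsLaminB, and 391 and 340 in mock, so that dsLaminB overlapped mock while both siAGO2 ranks stayed smaller. Its peaks covered the 5′ end printed above in every library and were 622 and 699 bp wide in siAGO2, 443 and 534 bp in dsLaminB, and 868 and 676 bp in mock. The windows around the hairpins themselves held no peak in any library.

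CR43334, the bantam transcript, stood at percentiles 3.89 and 4.79 in siAGO2, 13.0 and 1.04 in dsLaminB, and 17.6 and 13.6 in mock. It was the only member with a peak in all 6 libraries whose percentile was smaller in both libraries of each knockdown than in both mock libraries. Among all gene starts with a peak in all 6 libraries, 7.01% had such an order in siAGO2 and 4.54% in dsLaminB. At CR43334 the order was the same in plain ranks, which were 159 and 258 in siAGO2, 329 and 43 in dsLaminB, and 1048 and 760 in mock. By plain ranks CR45054 had this order too. The deposited −log10 q at CR43334 overlapped mock in both knockdowns. It was 36.1 and 76.6 in siAGO2, 26.6 and 71.1 in dsLaminB, and 50.7 and 38.9 in mock. Fold enrichment overlapped too, at 7.59 and 16.4 in siAGO2, 7.39 and 9.59 in dsLaminB, and 7.81 and 6.35 in mock. The widths were 531 and 778 bp in siAGO2, 388 and 376 bp in dsLaminB, and 3165 and 693 bp in mock. The wide peak of mock replicate 1 ran 2751 bp into the gene, while in the other 5 libraries the peak ended 231 to 383 bp after the 5′ end. The hairpin lies near the far end of the gene, which is 15466 bp long.

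CR43459, the transcript of mir-277 and mir-34, stood at percentiles 13.1 and 18.6 in siAGO2, 32.9 and 16.4 in dsLaminB, and 7.71 and 16.8 in mock. All groups overlapped. Its neighbour CR45054 stood at 20.5 and 13.6 in siAGO2, 19.7 and 13.6 in dsLaminB, and 16.2 and 16.9 in mock. Its plain ranks were 840 and 731 in siAGO2, 499 and 560 in dsLaminB, and 966 and 947 in mock. The hairpin of mir-317 lies between these 2 genes, in neither, and had no peak of its own. CR44206, which holds mir-184 of the female germ line, stood at 22.2 and 7.88 in siAGO2, 8.02 and 14.2 in dsLaminB, and 11.9 and 9.12 in mock.

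CR43651, which holds mir-14, a microRNA known to hold back cell death, is 1097 bp long, so that a single broad peak covered both its 5′ end and the hairpin. The percentile was 22.4 and 9.76 in siAGO2, 18.9 and 12.4 in dsLaminB, and 9.92 and 12.1 in mock. The width was 1521 and 1786 bp in siAGO2, 1400 and 1553 bp in dsLaminB, and 1817 and 1701 bp in mock. The gene, the precursor and both mature entries are therefore 4 members with 1 peak.

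Hsromega is the heat-inducible nuclear lncRNA around which omega speckles form. Its percentiles were 9.12 and 13.1 in siAGO2, 17.3 and 20.5 in dsLaminB, and 11.8 and 9.94 in mock. Both dsLaminB percentiles were larger than both mock percentiles, but the plain ranks overlapped, at 373 and 704 in siAGO2, 437 and 847 in dsLaminB, and 704 and 557 in mock. Its widths were 977 and 1812 bp in siAGO2, 484 and 1729 bp in dsLaminB, and 2476 and 1868 bp in mock. In every library the peak began after the annotated gene 5′ end, at 293 and 263 bp in siAGO2, 327 and 287 bp in dsLaminB, and 63 and 248 bp in mock. Only 1 of its annotated transcripts begins at that end. The other 6 begin 494 bp further on, at the second start printed above, and the peak covered this base in all 6 libraries. This second start was looked up after the peak positions had been seen.

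Marge, an lncRNA 1591 bp from the nearest protein-coding gene, stood at percentiles 5.43 and 10.7 in siAGO2, 39.7 and 13.6 in dsLaminB, and 11.1 and 7.73 in mock. The peak was weakest in dsLaminB replicate 1, the shortest list. CR45640 stood at 31.8 and 28.7 in siAGO2, 77.7 and 29.7 in dsLaminB, and 30.4 and 21.8 in mock. Its peak never reached its 5′ end and lay wholly before it in all 6 libraries. CR46064 and CR46004 came last among the members with peaks in all 6 libraries, with mean percentiles of 69.8 and 87.2. CR46004, which holds mir-276b, stood at 98.8 and 91.7 in siAGO2, 72.7 and 84.6 in dsLaminB, and 82.6 and 93.0 in mock, so a peak there was present in every library but always near the bottom of the list.

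MicroRNA transcripts made up much of the recurrent class. Of 20 lncRNA members with a microRNA precursor inside the gene, 7 (35.0%) had a peak in all 6 libraries, against 4 of 858 other lncRNA members (0.466%). Hosts are long genes, and the same held among genes of 5000 bp or more, with 6 of 15 hosts and 1 of 28 others. The 13 hosts without a peak in any library hold mir-10, mir-993, mir-bft, mir-288, mir-4973, mir-1, mir-315, mir-9a, mir-124, mir-316, mir-276a, mir-985 and mir-iab-8. In these 7 hosts the peak mostly did not lie at the hairpin. Of the precursor members inside them, mir-14 had a peak in its own window. The windows of mir-279, mir-996, mir-ban, mir-184, mir-276b and mir-4951 had none in any library. Over all microRNA precursor members, inside a host or not, 4 of 43 had a peak in any library. These were mir-282, mir-14, mir-8 and mir-10404-4.

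Mir-8 is the fly relative of the miR-200 family and acts on body growth. It counted as having a peak in siAGO2 replicate 1 and mock replicate 1 only, at percentiles 12.1 and 7.12. In the other 4 libraries the nearest peak lay just outside the window, 513 bp from the 5′ end in siAGO2 replicate 2, 563 and 506 bp in dsLaminB, and 502 bp in mock replicate 2. These outside peaks ranked 316 in siAGO2 replicate 2, 466 and 577 in dsLaminB and 75 in mock replicate 2, so the mir-8 locus had a strong peak in all 6 libraries, and its count depends on the window. Mir-10404-4 lies beside copies of ribosomal RNA genes, and its peak was present in siAGO2 replicate 2 and dsLaminB replicate 1 only. Reads that align to many places were removed by the authors, and repeated sequence is therefore read with uncertainty there.

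The recurrent lncRNAs were longer genes than the rest, but 7 of the 11 were microRNA hosts, which are long. The median gene length was 7145 bp for the 11 with a peak in all 6 libraries, 751 bp for the 27 with a peak in 1 to 5 and 697 bp for the 840 with none. Spliced transcripts were annotated for 6 of the 11 (54.5%), 12 of the 27 (44.4%) and 273 of the 840 (32.5%). Of lncRNA members of 5000 bp or more, 9 of 43 had any peak (20.9%), against 17 of 610 under 1000 bp (2.79%). Among these long genes it was 6 of 15 hosts and 3 of 28 others. The median GC content of the 300 bases from 250 before to 50 after the start was 51.0% in the 11, 40.3% in the 27, 39.3% in the 840 and 38.0% at protein-coding starts.

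Short motifs were counted in the same 300 bases on both strands. GAGAG, the core of the sites bound by the GAGA factor, was present at 7 of the 11 recurrent lncRNA starts (63.6%), 9 of 27 (33.3%) with peaks in 1 to 5 libraries, 30.2% of those with none and 29.7% of protein-coding starts. TATAAA on the gene strand, wholly within the 45 to 15 bases before the start, was at 2 of the 11 and 0 of the 27, against 2.86% of lncRNA starts with no peak and 8.81% of protein-coding starts. TCAGT on the gene strand within 10 bases of the start was at 3 of the 11 and 2 of the 27, against 7.02% of lncRNA starts with no peak and 12.2% of protein-coding starts. Anywhere in the 300 bases, TATAAA was at 36.4% of the 11 and 45.8% of protein-coding starts, and TCAGT at 45.5% and 51.5%. TCATT was at 63.6% and 58.8%, CAGCTG at 9.09% and 17.6%, TATCGAT at 9.09% and 18.2%, and CGGACGT at 0% and 1.53%. With 11 starts, 1 start moves a share by 9.09 percentage points.

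Several well known lncRNAs had no peak. The members bxd and iab8 of the bithorax complex, acal, flam, which makes piRNA precursors in ovarian cells, CR33938 and the Pol III product 7SLRNA:CR42652 had no peak at the start in any of the 6 libraries. Hsromega, CR43334 and CR31044 were the members of the looked-up genes that did. RoX1, roX2, let7C and the snoRNA hosts are not stand-alone by the rule, since a protein-coding gene lies nearer.

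A few other members carried a peak in nearly every library. All 8 members with a peak in 5 libraries were lncRNAs, and 7 of them lacked it in dsLaminB replicate 1, the shortest list, and 1 in siAGO2 replicate 1. CR45643 was the best ranked, at percentiles 29.9 and 20.8 in siAGO2, 43.6 in dsLaminB replicate 2, and 24.1 and 23.2 in mock. In dsLaminB replicate 1 its nearest peak lay 644 bp from the 5′ end. CR45637, CR45638 and CR45639 lie together and shared 1 peak. The window of CR46488 on chromosome 4 is wholly annotated as transposable element. At the other end, the 8 lncRNAs with a peak in 1 library only had rank percentiles of 80.3 to 100.0, and these libraries were 3 times siAGO2, 2 times dsLaminB and 3 times mock. The best ranked of them were CR44953 (80.3), CR44344 (93.8) and CR45404 (96.3).

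The rank of member peaks as a set, against protein-coding ones, depended on which peaks and starts were compared. The median rank percentile of distinct member peaks was 26.2 (20 peaks) and 50.8 (28) in siAGO2, 32.9 (15) and 36.9 (21) in dsLaminB, and 45.6 (31) and 50.4 (27) in mock. At protein-coding starts it was 51.5 and 49.0 in siAGO2, 50.6 and 49.8 in dsLaminB, and 48.0 and 49.1 in mock. The difference of -9.21 ± 11.2 (SD over 6 libraries) was negative in 4 libraries and positive in 2, and was smaller than its spread. It was -22.8 when peaks below a −log10 q of 5 were dropped and -25.4 in lists of equal length, both beyond the replicate spread of 11.4 between libraries of a group. Against stand-alone protein-coding starts its sign turned, to 5.32.

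Member peaks were wider. Their median width was 390 and 622.5 bp in siAGO2, 377 and 534 bp in dsLaminB, and 671 and 623 bp in mock. The median at protein-coding starts was 365 and 497 bp in siAGO2, 301 and 358 bp in dsLaminB, and 583 and 515 bp in mock. The difference was 99.8 ± 50.7 bp (SD over 6 libraries) and positive in 6 of 6. It was 52.4 bp where the peak had to cover the 5′ end and 63.0 bp at 3000 bp from protein-coding genes, near the replicate spread of 58.5 bp between libraries of a group.

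The knockdown comparison asks whether depletion of AGO2 or LaminB moves hypophosphorylated Pol II at these starts. In siAGO2, 33.0 ± 5.66 members had a peak, against 39.0 ± 4.24 in mock (SD, n = 2 libraries each), a difference of -6.0 with a pooled SD of 5.0. The 29 and 37 of siAGO2 overlapped the 42 and 36 of mock. In dsLaminB, 25.0 ± 4.24 members had a peak, a difference of -14.0 from mock with a pooled SD of 4.24. Both dsLaminB libraries, with 22 and 28, lay below both mock libraries. With 2 against 2 libraries no exact permutation test can give a p below 0.333, and no other test of these differences was run.

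Protein-coding starts moved with the members. They numbered 5283.5 ± 937 in siAGO2 and 3422 ± 1320 in dsLaminB, against 6495.5 ± 233 in mock. Set against mock replicate 1, members kept 69.0% and 88.1% of their count in siAGO2 and 52.4% and 66.7% in dsLaminB, with 85.7% in mock replicate 2. Protein-coding starts kept 69.4% and 89.3% in siAGO2, 37.4% and 65.4% in dsLaminB, and 95.1% in mock replicate 2. When each list was reduced to its 2531 most significant peaks, the length of the shortest, members with a peak numbered 18 and 20 in siAGO2, 22 and 20 in dsLaminB, and 23 and 20 in mock. The difference between dsLaminB and mock was then -0.5. List length and treatment cannot be told apart in these data.

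At single starts, a loss was counted where both mock libraries had a peak and neither library of the knockdown did. In siAGO2 this was so at 3 members, or 8.57% of the 35 with a peak in both mock libraries, against 2.66% of all gene starts and 7.15% of all starts with a peak in both mock libraries. They were alphagamma-element:CR32865, dntRL and CR46450. A gain, with both siAGO2 libraries and neither mock library, was seen at 0 members and 0.0219% of all gene starts. In dsLaminB 10 members were lost, or 28.6% of the 35, against 11.3% of all gene starts and 30.3% of those with a peak in both mock libraries. Besides the same 3 these were CR44526, CR45514, CR43883, CR45251, CR45914, asRNA:CR17025 and asRNA:CR46354. The last 3 share 1 peak, and both antisense genes hold mir-252. The share lost was thus near the share over all starts in each knockdown. In lists of equal length 0 members were lost in either knockdown.

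The losses lay at weak peaks. The mean mock percentile of the lost members ran between 61.7 and 96.9. CR44526 had no peak in siAGO2 replicate 1 or in either dsLaminB library, and stood at 59.3 in siAGO2 replicate 2, against 92.0 and 61.9 in mock. CR45514 had no peak in the same 3 libraries, and stood at 95.9 in siAGO2 replicate 2, against 61.8 and 81.7 in mock. CR46450 and dntRL had no peak in any knockdown library, against percentiles of 81.1 and 76.1 for CR46450 and 98.5 and 95.3 for dntRL in mock.

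The best ranked loss was one of extent rather than of presence. The alphagamma-element gene belongs to the heat-shock locus that also holds Hsp70 copies, and 60.5% of its window is annotated as transposable element. A peak lay inside the gene in all 6 libraries, and its far edge was 959 to 981 bp after the 5′ end in each. Its near edge lay 709 and 698 bp after the 5′ end in siAGO2, 705 and 707 bp in dsLaminB, and 442 and 353 bp in mock. Its width was accordingly 264 and 284 bp in siAGO2, 255 and 265 bp in dsLaminB, and 535 and 623 bp in mock, and only the mock peaks reached into the 500-bp window. Its percentile was 52.8 and 15.2 in siAGO2, 29.1 and 30.5 in dsLaminB, and 45.6 and 77.8 in mock. At the other lost members no peak of the knockdown lay within 1000 bp of the 5′ end. These positions were looked up after the loss had been seen.

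One member gained a peak. CR44412, an unspliced lncRNA of 796 bp, had a peak in both dsLaminB libraries and in neither mock nor siAGO2 library, as did 0.0109% of all gene starts against mock. Its percentiles were 98.6 and 96.8, at the bottom of both lists, and its widths 247 and 661 bp. The peak lay 342 to 588 bp after the 5′ end in dsLaminB replicate 1 and 500 to 1160 bp after it in replicate 2. The replicate 2 peak thus only touched the edge of the 500-bp window, and the gain depends on that window. In the 4 other libraries the nearest peak lay 105436 to 106122 bp away. Between the knockdowns, siAGO2 had a peak that dsLaminB lacked at 1 member, CR45251 (3.07% of all gene starts), and dsLaminB had one that siAGO2 lacked at CR44412 (0.0109%).

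Peaks were narrower in dsLaminB, at members as over all gene starts. Over whole lists the median width was 361 and 464 bp in siAGO2, 300 and 351 bp in dsLaminB, and 540 and 481 bp in mock. Whether width follows list length or treatment was not tested. Of the 17 members with a peak in all 6 libraries, both dsLaminB peaks were narrower than both mock peaks at 16 (11 of 12 groups), against 93.5% of all gene starts with peaks in all 6. In siAGO2 this was so at 5 of 17 (5 of 12 groups), against 52.4%. The 5 were CR43459, CR44206, CR45054, Hsromega and marge. At CR43459 the siAGO2 peaks were 399 and 559 bp wide and the dsLaminB peaks 303 and 399 bp, against 671 and 647 bp in mock. At CR44206 the siAGO2 peaks were 675 and 763 bp wide and the dsLaminB peaks 377 and 666 bp, against 918 and 873 bp in mock. None of the 17 had both peaks wider than mock in either knockdown, with 0.412% of all starts for siAGO2 and 0.0375% for dsLaminB. Each such order at 1 member has an exact two-sided permutation p of 0.333, the smallest that 2 against 2 libraries can give.

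**Figure D5:**
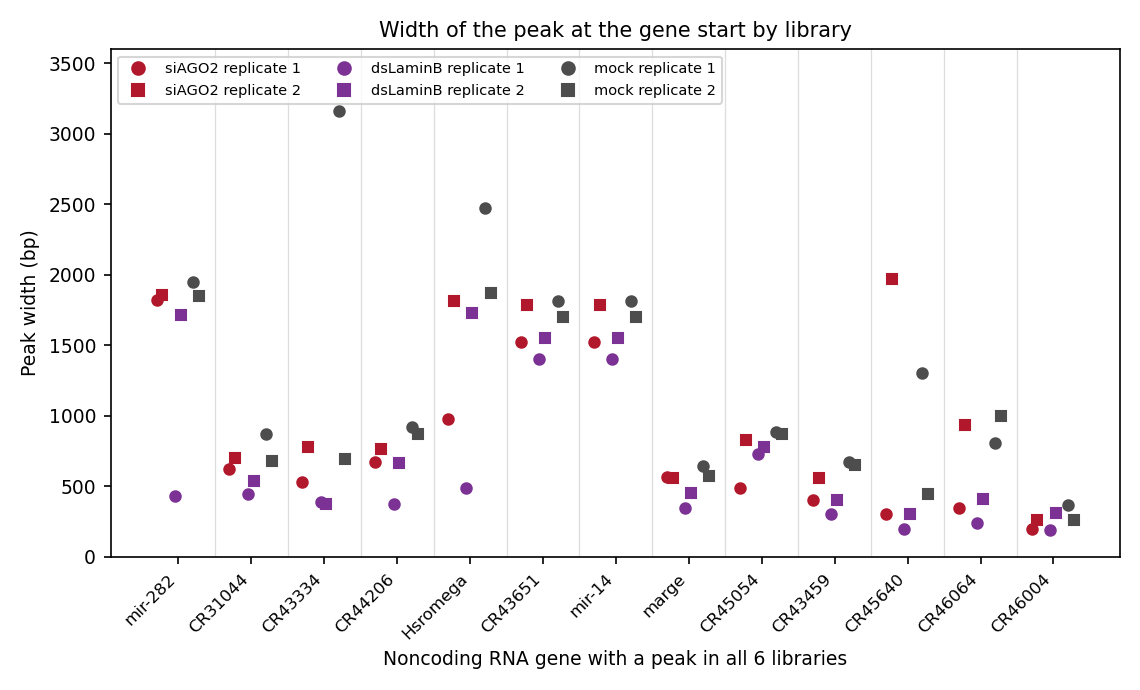
Width of the peak at the gene start (y axis, bp) for the 13 ncRNA genes other than mature microRNA entries with a peak in all 6 libraries (x axis, by mean rank), 1 point for each library. Both dsLaminB points lie below both mock points at every gene but CR46004, and the 3165-bp peak of CR43334 in mock replicate 1 is the widest.

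The order of ranks depended on whether list length was taken into account. By rank percentile, both siAGO2 values were smaller than both mock values at 2 of the 17, CR31044 and CR43334. The share was 7.01% of all gene starts with peaks in all 6. Both siAGO2 values were larger at 0 of 17, against 36.0%. Both dsLaminB percentiles were larger at 11 of 17, against 70.1%, and smaller at CR43334 alone, against 4.54%. By plain rank, which is not divided by list length, both siAGO2 values were smaller at 3 of 17, the same 2 and CR45054. The share was 20.1% of all gene starts. Both siAGO2 values were larger at 0, against 18.1%. Both dsLaminB plain ranks were larger at 0 of 17, against 21.6%, and smaller at 7, against 28.2%. A smaller rank in a shorter list does not mean a larger −log10 q. The 7 were CR43334, CR45054, CR46004 and the 4 members that share the mir-14 peak, whose ranks were 479 and 512 in dsLaminB, against 592 and 678 in mock. At the mir-14 peak −log10 q was 20.7 and 38.4 in dsLaminB, below the 67.5 and 40.6 of mock. CR43334 was the only member whose dsLaminB ranks and percentiles both lay apart from mock in the same direction, though its −log10 q overlapped mock. The 17 include several members that share a peak, so these counts are not of independent starts.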

How the data were processed

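Per the submitters' processing notes and the methods of the study, the authors used cutadapt 1.10 to trim the single-end reads and Bowtie2 to place them on dm6, removed multimapping reads and duplicates (Picard 2.11.0) and called broad regions with MACS2 2.1.1.20160309 against the paired input, separately for each replicate. These versions are those of the processing notes, and the study's methods name other versions of cutadapt and Picard. The deposited lists give position, score, fold enrichment and −log10 p and q. The deposited −log10 q ranked peaks within a list, and the authors' ratio (fold enrichment) ranked them in 1 alternative. The score, which the authors derived from q, and the deposited −log10 p were used only to break ties or not at all. The 6 input samples entered only through this peak calling. The files hold no columns of the authors' comparisons.

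Genes came from the Ensembl BDGP6 annotation, with transposable elements left out, and 15 of 3304 ncRNA genes lay off the 7 chromosomes. A start had a peak where at least 1 bp overlapped the window of 500 bp either side of it, and the best ranked peak was taken. Sequences came from RefSeq for dm6. Intervals are Wilson 95% intervals. Computation used Python 3.11.15, pandas 2.3.3, NumPy 2.4.6 and SciPy 1.17.1, and the overlap and distance steps were tested on simulated data. No test across genes was run, since the lists hold no counts and each group had 2 libraries, and differences are given with their spread.

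Groups and replicate numbers came from the sample titles. The rule for members uses the annotation alone, but the rule, the lists and the tests were chosen with earlier results of these data known. Named genes were the 12 best ranked members with a peak in all 6 libraries, the 3 best ranked losses in each knockdown, gains, the 3 best ranked single-library members and the looked-up lncRNAs. The other members with peaks in all 6 libraries, the remaining losses, mir-8, mir-10404-4 and CR45643 were named after their values were seen. Alternatives were a −log10 q of at least 5, lists of equal length, a 250-bp window, a peak over the 5′ end, a distance of 3000 bp, members with no other start in the window, no chromosomes 4 and Y, each library left out in turn, a replicate block, stand-alone protein-coding starts and, chosen after seeing the data, 1 count for each group of overlapping windows, no unnamed short entries and plain ranks.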

Additional observations from a re-analysis of the deposited data

How the results depend on the processing

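Of 128 alternative values, 101 moved by less than the replicate spread or within 1.5 times the main count, 26 moved further and 1 changed sign. When peaks had to reach a −log10 q of 5, members minus protein-coding became -25.1 percentage points in share and -22.8 in rank percentile, and 4 members were lost in dsLaminB. With lists of equal length the share difference was -17.5, the rank difference -25.4, the width difference 159 bp, dsLaminB minus mock -0.5, and 0 members were lost in either knockdown. Requiring the peak over the 5′ end gave a share difference of -25.3, 10 members with a peak in all 6 libraries and 1 lost in siAGO2. At 3000 bp from protein-coding genes, dsLaminB minus mock was -7.5, 11 members had a peak in all 6, and 1 was lost in siAGO2 and 5 in dsLaminB. Without members that share a window with another start, dsLaminB minus mock was -9.5 and 10 had a peak in all 6. Against stand-alone protein-coding starts the share difference was -18.6 and the rank difference reversed to 5.32. Leaving out each library in turn gave -17 to -11 for dsLaminB minus mock, -10 to -2 for siAGO2 minus mock, -36.7 to -31.1 for the share, -11.4 to -5.98 for the rank, 84.5 to 115 bp for the width, 17 to 24 members in all libraries, 3 to 8 lost in siAGO2 and 10 to 17 lost in dsLaminB. The loss in siAGO2 rose to 6 without siAGO2 replicate 1, 7 without siAGO2 replicate 2 and 8 without mock replicate 2, and that in dsLaminB to 17 without dsLaminB replicate 2 or without mock replicate 2. With the replicate number as a block the differences stayed at -6.0 for siAGO2 (-13 and 1 by number) and -14.0 for dsLaminB (-20 and -8), and the labels do not say that a number marks a shared batch. With plain ranks in place of percentiles, both dsLaminB ranks were smaller than both mock ranks at 7 members and larger at 0. The causes were not tested. List length limits what a missing peak can show, since read numbers are unknown.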
